A study of Mus musculus with 6 samples.

Results

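Interleukins are secreted signals between blood cells, and their receptors are built from shared and private chains. The genes described here are those whose platform symbol is Il followed by a number, without 10 receptor names set aside as a separate group (Il2ra, Il2rb, Il2rg, Il4ra, Il7r, Il9r, Il15ra, Il21r, Il23r and Il1r1). This rule gave 65 of 18193 genes with a symbol of their own on the array, read by 100 of 45101 probe sets. These genes are 32 ligands, 25 receptor chains, 4 decoy receptors or binding proteins, 2 antagonists (Il1rn and Il1f5), the enzyme gene Il4i1 and the antisense RNA gene Il1bos. A further 3 probe sets were annotated to an Il gene together with another gene and were left out. RNA came from double negative cells of the mouse thymus, T cell precursors without CD4 or CD8, and was read on single-colour arrays. There were 3 arrays from mice labelled as lacking both transcription factor genes Egr1 and Egr3 (double knockout) and 3 from wild type mice, each labelled with 1 animal. A sample description names a cytometric sort, whereas titles name the thymus as a whole. The labels used here give no age, sex, strain or allele design, and p-values measure only the spread between these arrays.

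Interleukin receptors signal in a few ways. Chains of the common gamma, interleukin 6, 12 and 10 families recruit JAK kinases, which phosphorylate STAT factors. Chains of the interleukin 1 and 18 receptors recruit MyD88 and IRAK kinases, and interleukin 17 receptors recruit the adaptor encoded by Traf3ip2. In the thymus, interleukin 7 is made by the stroma and sustains early T cell precursors, while interleukin 10 is known as a product of activated and regulatory lymphocytes and of myeloid cells.

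The deposited values are linear intensities with a common trimmed mean of 150 on each array. As a background level, 27 bacterial control probe sets reached at most 25.6 in the double knockout arrays and 29.9 in the wild type arrays. Egr1 itself read 1757, 1696 and 1221 in the arrays labelled double knockout and 508, 509 and 455 in those labelled wild type, which goes against the label, and whether its probes lie within the disrupted part is not known here. The brighter Egr3 probe set read 34.4, 45.8 and 32.9 in the double knockout arrays and 92.2, 83.1 and 30.8 in the wild type arrays. The dimmer one read 12.5, 32.1 and 55.4 in the double knockout arrays and 34.2, 30.5 and 30.5 in the wild type arrays. Neither Egr3 probe set passed the test used below. Directions below therefore hold for the arrays as labelled. Several arrays stood apart. For the granulocyte marker S100a8, the intensity was 9680 to 12016 in the double knockout arrays, against 5282, 9927 and 20.4 in wild type replicates 1 to 3. The Y-linked gene Eif2s3y gave 186 to 265 in the double knockout arrays, which also carried Xist at 3910 to 6015, while wild type replicates 1 to 3 gave 476, 13.2 and 0.625. Wild type replicate 1 had the lowest Xist, 1439. Both signals were thus above the controls on 4 of the 6 arrays, so that 1 animal for each array, as labelled, is not certain, and n and SD refer to arrays. The number of arrays, 3 for each group, limits the precision. In bulk RNA a different share of a cell type and a different level per cell cannot be told apart.

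Most interleukin genes were dim in these cells. A mean intensity of 50 was reached in at least 1 group by 19 of the 100 probe sets (19 in the arrays labelled double knockout, 13 in those labelled wild type), against 35.5% of all non-control probe sets. These stand for 15 genes: Il10, Il10ra, Il10rb, Il16, Il17ra, Il17rb, Il17re, Il18, Il18r1, Il18rap, Il1f10, Il1r2, Il20ra, Il27ra and Il6st. Of these, Il10, Il18rap, Il1f10 and Il20ra reached 50 in the arrays labelled double knockout and not in those labelled wild type. No gene reached it in wild type alone. By role, 10 of 25 receptor chain genes and 4 of 32 ligand genes passed 50, but receptor genes have more probe sets, and by probe set the counts were 11 of 50 for receptor chains and 7 of 39 for ligands. The 4 ligands were Il10, Il16, Il18 and Il1f10. At the edge of the threshold, a dim Il16 probe set (55.3), Il1f10 (53.0) and Il18rap (51.9) lay just above it in their higher group, and Il17rd (45.2), Il12rb1 (43.7) and Il6ra (42.2) just below. Another 20 genes had no probe set above the brightest bacterial control on any array. None of the 13 genes grouped here as common gamma-chain and beta-chain families (such as Il2, Il4, Il7, Il15 and Il3) reached 50. Il13 and its receptor genes are counted with them. The receptor chains set aside by the rule are not, and Il7r among those averaged 2886 in the double knockout arrays and 1004 in the wild type arrays. None of 4 interleukin 17 ligands or 6 ligands of the interleukin 6 and 12 families reached 50 either. An intensity is compared here between groups for 1 probe set, not between probe sets.

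**Figure D1:**
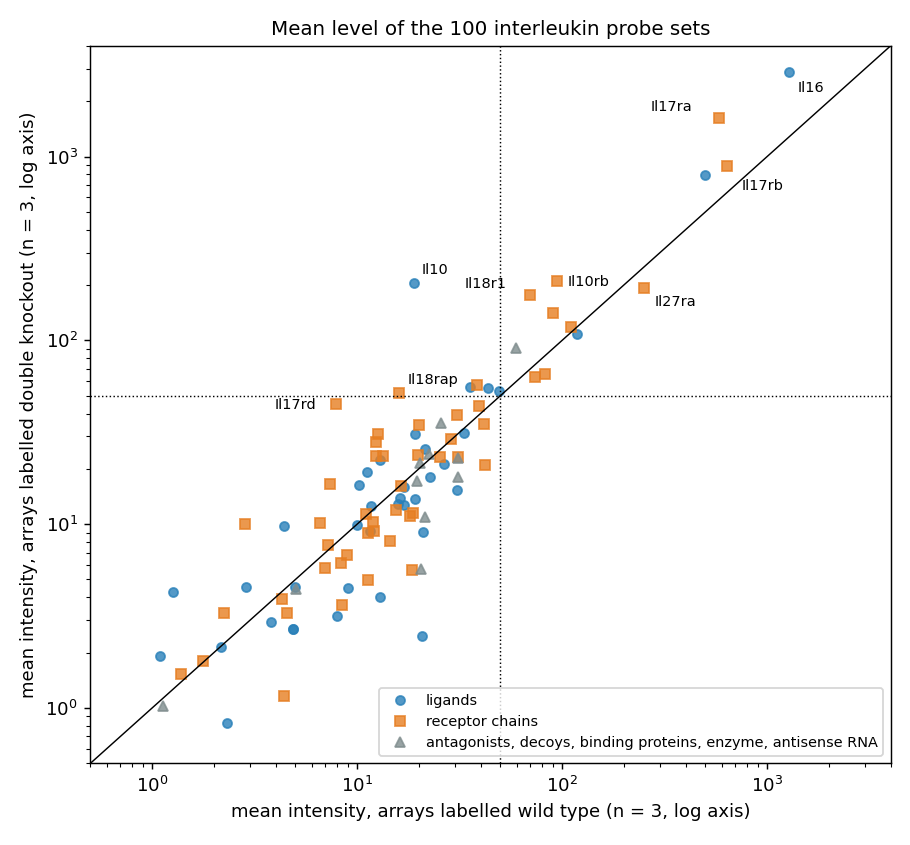
Mean intensity of each of the 100 interleukin probe sets on the 3 arrays labelled double knockout (vertical axis) and the 3 labelled wild type (horizontal axis), both on log axes. The diagonal marks equal means and the dotted lines an intensity of 50. Most points lie under 50 in both groups, and Il10 stands farthest above the diagonal among those that reach 50, with means of 204 and 19.0.

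The groups were compared with limma on log2 of intensity plus 16, centred on each array's median. Each log2 change is double knockout minus wild type, with the standard error (SE) of the fit. There were 4 interleukin probe sets that rose and 0 that fell, of 55 that passed the filter on low values, at a Benjamini-Hochberg adjusted p of 0.05 over the 27022 probe sets tested. The 4 are those of Il10, Il17ra, Il17rd and Il16. Across the array 2.91% of tested probe sets rose and 2.11% fell (5.03% in either direction), and of the 55 members 7.27% rose. Among tested probe sets with a mean of 50 in a group, 3 of 19 members rose and 0 fell, against 4.65% and 3.38% of all such probe sets. All 19 reached 50 in the double knockout arrays, and 6 of them, Il10 included, only there. This filter thus partly selects for the direction counted, and the count is not independent support. At an unadjusted limma p under 0.05 there were 10 member probe sets, 9 with a positive and 1 with a negative change. That is 18.2% of the 55, close to the 18.8% of all tested probe sets. None of the alternative fits called a member lower, and a change that did not pass is not thereby shown to be absent. Groups did not overlap in 11 of the 55 with the arrays labelled double knockout higher (20.0%, against 13.2% of all tested) and in 2 with them lower (Il6ra and Il1f6, against 11% of all tested). The median change was 0.10 over the 55 and 0.00 over all tested. The 4 calls did not weigh alike. Il10 alone was called with each of the 6 arrays left out in turn. The count of probe sets that rose was 1 without wild type replicate 1, 1 without double knockout replicate 1, 2 without double knockout replicate 2, and 3 without wild type replicate 2 or double knockout replicate 3. It stayed at 4 without wild type replicate 3.

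**Figure D2:**
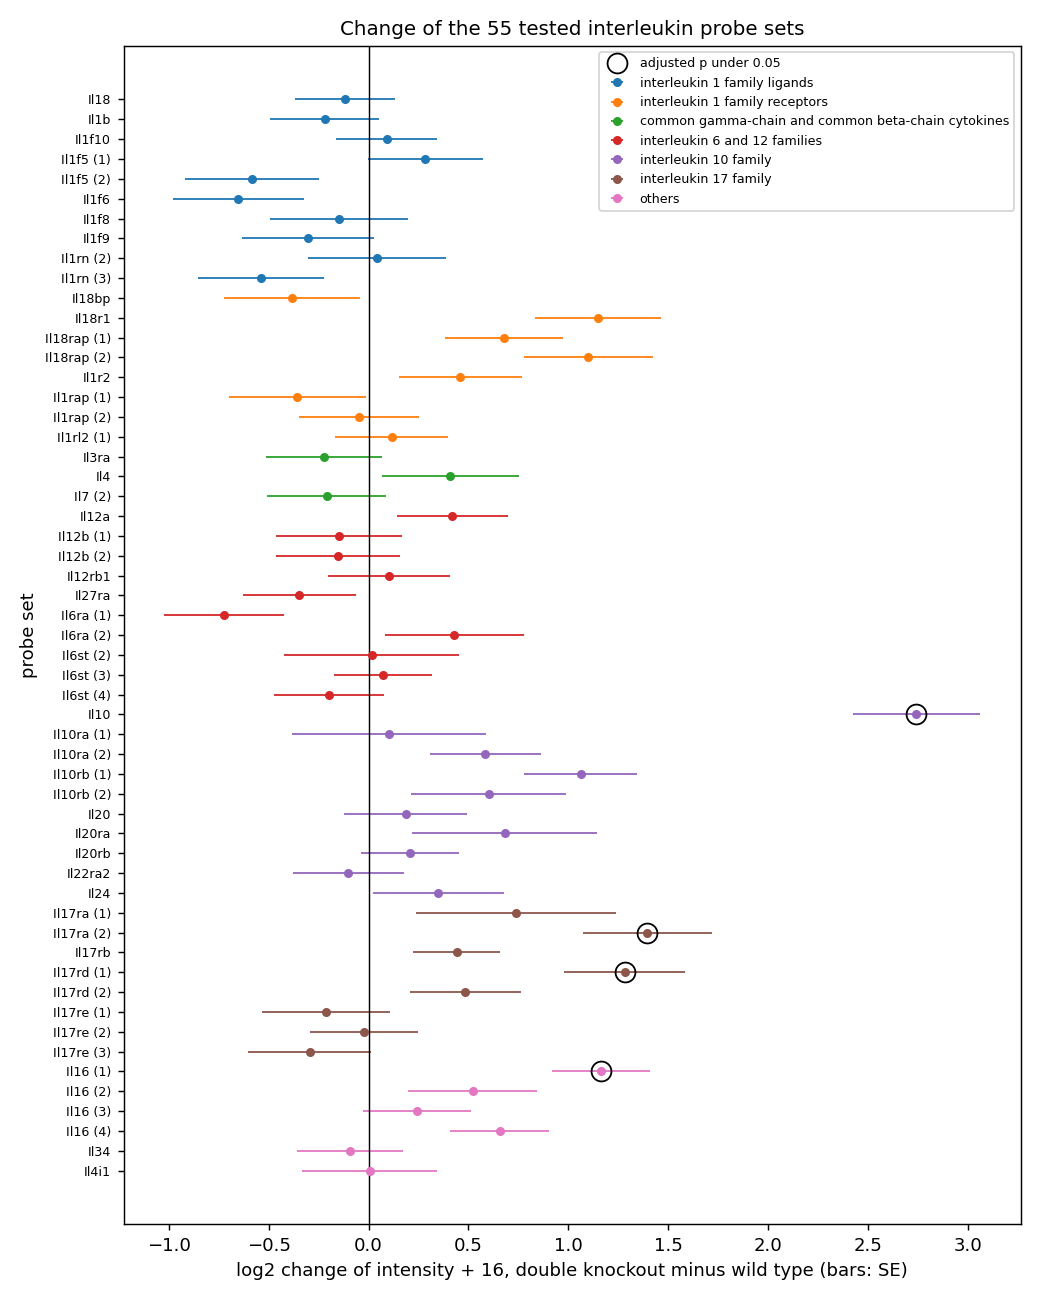
Log2 change (double knockout minus wild type, on the scale of intensity plus 16) of the 55 tested interleukin probe sets, with bars of 1 SE, coloured by family. Numbers in brackets tell apart probe sets of 1 gene. The 4 circled probe sets, of Il10, Il17ra, Il17rd and Il16, passed the test, and all 4 lie to the right of 0.

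No interleukin 1 family ligand passed the test. Il18, which activates lymphocytes after cleavage by caspase 1, read 101, 130 and 95.7 on the arrays labelled double knockout and 99.3, 105 and 152 on those labelled wild type. Its groups overlapped, with a log2 change of -0.12 (SE 0.25, adjusted p = 0.851). Il1f10, an interleukin 1 relative also known as interleukin 38, read 48.2, 52.9 and 58.0 in the double knockout arrays and 39.4, 39.9 and 68.4 in the wild type arrays, again with overlap (0.09, SE 0.25, adjusted p = 0.893). The proinflammatory cytokine gene Il1b read 15.5, 30.6 and 17.4 in the double knockout arrays, against 24.7, 20.2 and 34.6 in the wild type arrays. These values lie about the level of the bacterial controls.

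The interleukin 18 receptor genes had higher values in all 3 arrays labelled double knockout, without passing the test. Il18r1, the chain that binds interleukin 18, read 238, 174 and 118 in the double knockout arrays and 89.0, 78.0 and 41.8 in the wild type arrays. The groups did not overlap, with means of 177 ± 60.005 and 69.6 ± 24.7 (SD, n = 3 each) and a log2 change of 1.15 (SE 0.32, limma adjusted p = 0.0609). Il18rap, the accessory chain that signals with it, read 50.4, 37.8 and 67.5 in the double knockout arrays and 4.83, 24.0 and 18.9 in the wild type arrays on its second probe set, also without overlap. Its change was 1.10 (SE 0.32, adjusted p = 0.0746), and the other probe set gave 0.68 (SE 0.30, adjusted p = 0.241). Il18r1 passed in 2 of 17 alternative fits (adjusted p between 0.0111 and 0.276) and this Il18rap probe set in 1 of 16 (0.0295 to 0.231), and neither passed with any of the 6 arrays left out. The decoy receptor gene Il1r2, which binds interleukin 1 without signalling, read 51.7, 111 and 111 in the double knockout arrays and 62.5, 76.4 and 39.9 in the wild type arrays, with overlap (0.46, SE 0.31, adjusted p = 0.473). In the gene order of the mouse assembly GRCm38.p6, Il1r2, Il1rl2, Il18r1 and Il18rap lie close together on chromosome 1, with at most 1 other coding gene between neighbours. Of these 4, Il18r1 and Il18rap were the ones without overlap between groups. Il1rl2, the receptor of the interleukin 36 cytokines, had a change of 0.12 (SE 0.28) on the tested probe set.

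No member of the interleukin 6 and 12 families passed the test. Il6st, the gp130 chain shared by the receptors of interleukin 6 and its relatives, read 107, 135 and 114 in the double knockout arrays and 108, 134 and 91.3 in the wild type arrays on 1 probe set, so that the groups lay on top of each other (0.07, SE 0.25, adjusted p = 0.911). Another probe set read 51.4, 77.7 and 59.6 in the double knockout arrays and 107, 97.4 and 16.003 in the wild type arrays (0.02, SE 0.44). Its change was -0.62 (adjusted p = 0.141) without wild type replicate 3, which alone gave the low value. The remaining tested Il6st probe set gave -0.20 (SE 0.27). Il27ra, the receptor chain of interleukin 27, read 189, 159 and 229 in the double knockout arrays and 269, 307 and 173 in the wild type arrays, with overlap (-0.35, SE 0.28, adjusted p = 0.573). Il6ra, the chain that binds interleukin 6, stayed under 50 in both groups. One of its probe sets read 36.4, 13.1 and 13.4 in the double knockout arrays and 50.8, 39.1 and 36.6 in the wild type arrays, without overlap but also without passing the test (-0.72, SE 0.30, adjusted p = 0.216). The other Il6ra probe set had a positive change (0.43, SE 0.35).

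Il10 rose in the arrays labelled double knockout more than any other interleukin probe set tested. It encodes the anti-inflammatory cytokine interleukin 10. Its single probe set read 202, 182 and 229 in the double knockout arrays and 39.7, 9.68 and 7.67 in the wild type arrays. The groups lay far apart, and wild type replicates 2 and 3 were below the brightest bacterial control of their arrays. The means were 204 ± 23.5 and 19.0 ± 17.9 (SD, n = 3 each), and the log2 change was 2.74 (SE 0.32, limma adjusted p = 0.000634). On the scale of intensity plus 16 this understates the change of a gene that is near background in wild type. With each array left out in turn the change lay between 2.51 and 3.11 and the adjusted p between 0.000437 and 0.00924. The family members Il24 and Il20 lie close to Il10 on chromosome 1 in GRCm38.p6, in the order Il24, Il20, Il10. At most 1 other coding gene lies between neighbours in this order. Il24 and Il20 were dim and did not pass (0.35, SE 0.33, and 0.19, SE 0.31).

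The receptor chains for interleukin 10 had higher means in the arrays labelled double knockout, without a call. Il10rb, the chain shared with the interleukin 22 receptor, read 229, 177 and 230 in the double knockout arrays and 78.3, 131 and 72.8 in the wild type arrays. The groups did not overlap, and the change of 1.06 (SE 0.28) had an adjusted p of 0.0533, just outside the threshold. It passed in 8 of 17 alternative fits (adjusted p between 0.0187 and 0.229 over the 17). A dimmer Il10rb probe set gave 0.60 (SE 0.39, adjusted p = 0.450). Il10ra, the ligand-binding chain, read 145, 124 and 154 in the double knockout arrays and 61.4, 82.4 and 128 in the wild type arrays. Here wild type replicate 3 reached into the range of the other group (0.58, SE 0.28, adjusted p = 0.287), and the change was 0.36 without wild type replicate 1. A dimmer probe set gave 0.10 (SE 0.49). Il20ra, a receptor chain of interleukins 19, 20 and 24, read 59.5, 62.6 and 49.8 in the double knockout arrays and 3.35, 77.9 and 34.3 in the wild type arrays. The wild type values spread on both sides of the double knockout ones (0.68, SE 0.47, adjusted p = 0.486), and the change was 0.05 without wild type replicate 1 and 1.24 without wild type replicate 2.

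**Figure D3:**
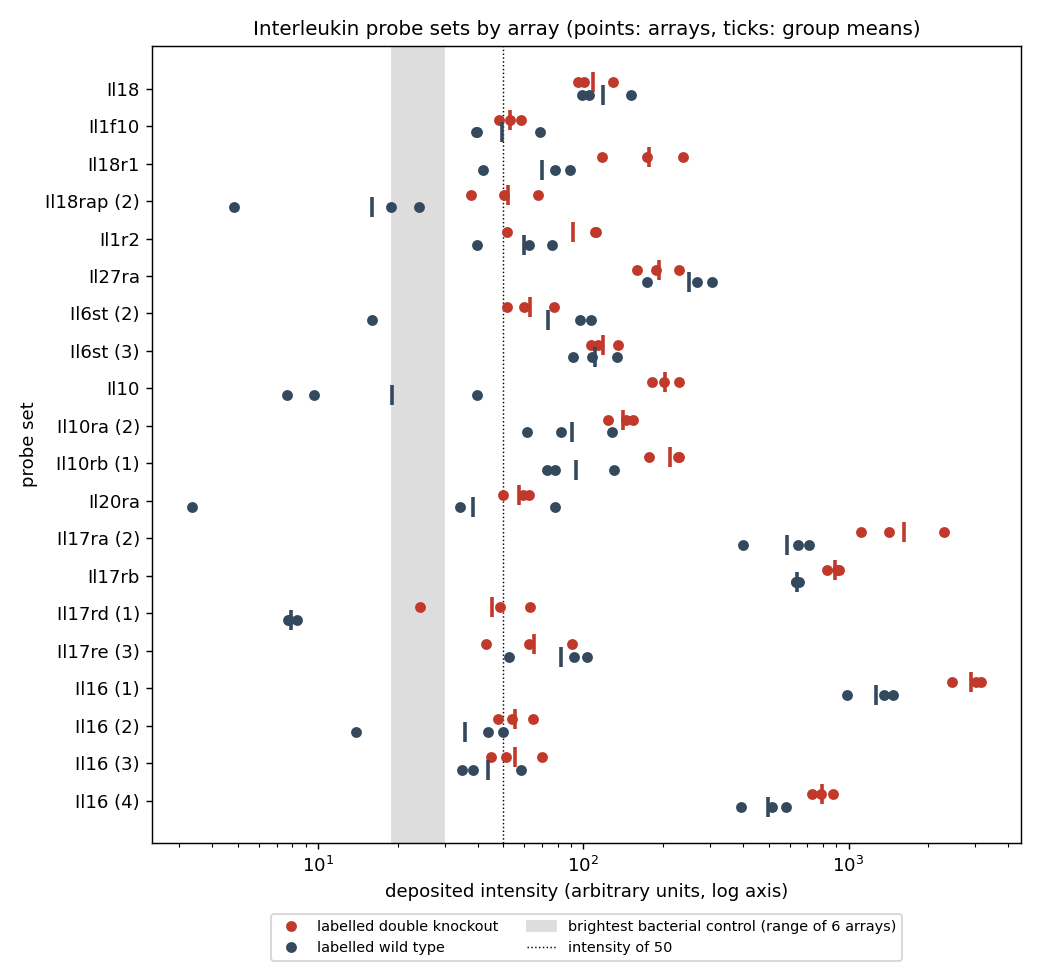
Deposited intensity (log axis) on each array for the 19 interleukin probe sets with a mean of at least 50 in a group and for the called Il17rd probe set, which stayed under 50. Points are arrays, ticks are group means, and the grey band is the range of the brightest bacterial control. The Il10 values of 182 to 229 on the arrays labelled double knockout lie clear of the wild type values of 7.67 to 39.7, while Il18, Il1f10 and Il6st overlap.

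Of the interleukin 17 receptor genes, Il17ra and Il17rd rose in the arrays labelled double knockout. Il17ra, the chain shared by receptors of this family, read 2298, 1425 and 1118 in the double knockout arrays and 401, 707 and 647 in the wild type arrays. The groups did not overlap, with means of 1614 ± 612 and 585 ± 162 (SD, n = 3 each) and a log2 change of 1.40 (SE 0.32, limma adjusted p = 0.0303). The call was lost without wild type replicate 1 (change 1.13, adjusted p = 0.107), wild type replicate 2 (1.58, adjusted p = 0.0591), double knockout replicate 1 (1.09, adjusted p = 0.184) or double knockout replicate 2 (1.47, adjusted p = 0.0785). Its other probe set read 22.6, 26.2 and 54.8 in the double knockout arrays and 1.65, 55.7 and 2.92 in the wild type arrays, with overlap (0.74, SE 0.50). With wild type replicates 1, 2 or 3 left out in turn, that change was 0.36, 1.43 or 0.42.

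Il17rd, also known as Sef and described in zebrafish as an inhibitor of fibroblast growth factor signalling, rose, and no wild type array exceeded its brightest bacterial control. Its first probe set read 63.1, 48.4 and 24.1 in the double knockout arrays and 8.30, 7.78 and 7.69 in the wild type arrays. The groups did not overlap, although double knockout replicate 3 lay below the brightest control of its own array, and both means, 45.2 ± 19.7 and 7.92 ± 0.329 (SD, n = 3 each), stayed under 50. The change was 1.28 (SE 0.30, adjusted p = 0.0333). Its size depends on the offset, with 2.24 at an offset of 1 and 0.58 at an offset of 64, both called. It lost its call without the filter on low values (adjusted p = 0.0775) and without wild type replicate 1 (0.0959), wild type replicate 2 (0.0903), double knockout replicate 1 (0.183) or double knockout replicate 2 (0.114). The second Il17rd probe set gave 0.49 (SE 0.28, adjusted p = 0.392), again without overlap, with 22.6, 22.7 and 24.9 in the double knockout arrays and 11.98, 6.02 and 18.9 in the wild type arrays.

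The other chains of the family did not pass. Il17rb, which binds interleukin 25, read 828, 908 and 922 in the double knockout arrays and 651, 631 and 636 in the wild type arrays. Its replicates lay close together and the groups did not overlap, but the change was small (0.44, SE 0.22, adjusted p = 0.308). Il17re, the receptor of interleukin 17C, read 90.9, 43.0 and 62.4 in the double knockout arrays and 103, 92.1 and 52.5 in the wild type arrays on the probe set past 50, with overlap (-0.29, SE 0.31, adjusted p = 0.677), and its other tested probe sets gave -0.21 (SE 0.32) and -0.02 (SE 0.27).

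Il16 also rose. It encodes a precursor with PDZ domains, whose C-terminal part is secreted as a ligand of CD4. Its first probe set read 3160, 2463 and 3030 in the double knockout arrays and 989, 1473 and 1356 in the wild type arrays. All 3 double knockout arrays lay above the wild type range, with means of 2884 ± 371 and 1273 ± 252 (SD, n = 3 each) and a log2 change of 1.16 (SE 0.24, limma adjusted p = 0.0185). The call was lost without wild type replicate 1 (0.97, adjusted p = 0.0645), double knockout replicate 1 (1.07, adjusted p = 0.140) or double knockout replicate 3 (1.12, adjusted p = 0.0772). The other bright probe set read 872, 786 and 730 in the double knockout arrays and 394, 516 and 581 in the wild type arrays, without overlap, but its change of 0.66 (SE 0.25) did not pass (adjusted p = 0.168). The 2 dimmer Il16 probe sets gave 0.52 (SE 0.32) and 0.24 (SE 0.27), so that all 4 had a positive change of unequal size. Without wild type replicate 1 these dimmer probe sets gave 0.14 and 0.11.

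**Figure D4:**
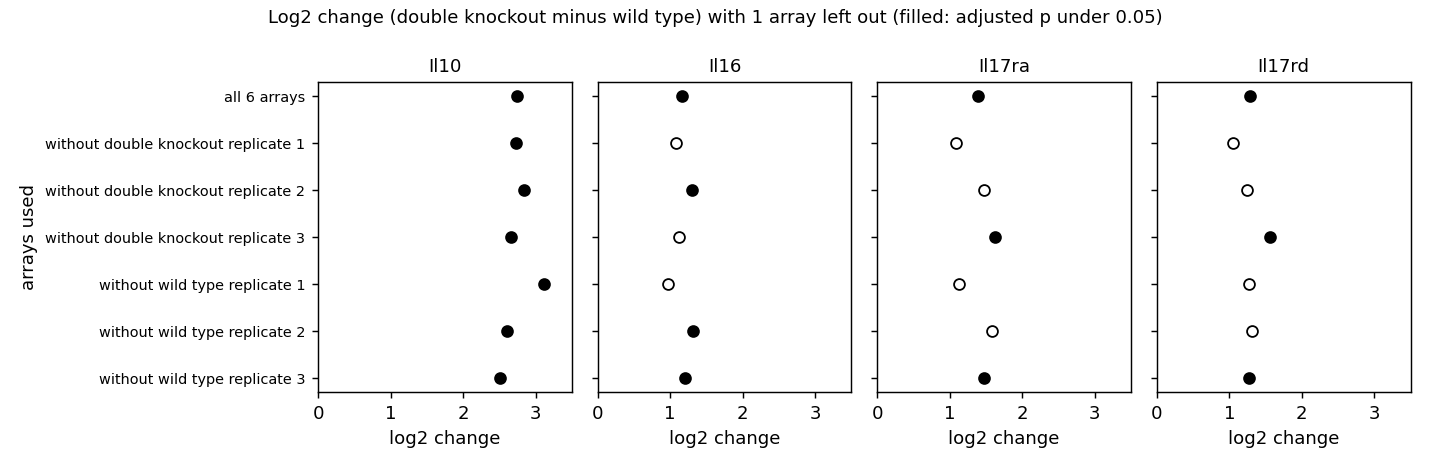
Log2 change (double knockout minus wild type, horizontal axis) of the 4 called probe sets with all 6 arrays and with each array left out. Filled points passed an adjusted p of 0.05. Il10 is filled in each row, whereas Il16, Il17ra and Il17rd lose the call in 3, 4 and 4 of the 6 rows, with changes that stay above 0.

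Promoters of 50 of the 65 genes were found in a RefSeq table of GRCm38.p6 (250 bases before to 50 after each start, 61 starts in all). Those of Il10 and Il17ra were not among them and were not searched for motifs. Those of Il17rd and Il16 were found and are shown here, because both genes rose. Each is printed from 5′ to 3′ on the gene's strand, with capitals marking the GC box GGGCGG on either strand in Il17rd (chr14:27038751-27039050, plus strand) and the AP-1 site TGANTCA in Il16 (chr7:83735490-83735789, minus strand). Il16 has 3 starts in the table, and the one printed was chosen because it holds the site, which the other 2 lack.
Il17rd: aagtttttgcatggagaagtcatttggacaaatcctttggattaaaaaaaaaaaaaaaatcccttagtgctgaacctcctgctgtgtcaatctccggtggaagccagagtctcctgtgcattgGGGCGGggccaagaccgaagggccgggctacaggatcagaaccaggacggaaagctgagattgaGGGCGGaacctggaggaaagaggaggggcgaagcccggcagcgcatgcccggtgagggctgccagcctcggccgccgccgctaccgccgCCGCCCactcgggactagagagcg
Il16: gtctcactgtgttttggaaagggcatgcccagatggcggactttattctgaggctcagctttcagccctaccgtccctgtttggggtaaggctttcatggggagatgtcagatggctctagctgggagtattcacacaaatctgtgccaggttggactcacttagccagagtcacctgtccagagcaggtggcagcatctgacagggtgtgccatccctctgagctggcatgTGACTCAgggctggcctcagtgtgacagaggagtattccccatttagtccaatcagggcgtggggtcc
The Il17rd window holds 3 GC boxes and has a GC content of 58.3%, and the Il16 window holds 1 AP-1 site. On both strands, GGGCGG occurs in 35.7% of all 32851 promoters and in 27.9% of the interleukin ones, and TGANTCA in 7.81% of all and in 21.3% of the interleukin ones (13 of 61). The EGR motif GCGTGGGCG occurs in 0.612% of all promoters and in 0 of the 61, and with 1 base left free (GCGNGGGCG, which can overlap a GC box) in 5.55% of all and in 1 of the 61, that of Il13ra1, whose 5 probe sets were too dim to be tested. These matches describe letters in this window only.

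The remaining 49 genes, 70 probe sets in all, were under 50 in both groups and had no call. Of these probe sets 27 were tested, with changes between -0.72 and 0.43 and adjusted p of at least 0.216. Over all members, 13 genes had more than 1 tested probe set, and in 9 of them these shared a sign.

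Genes that act with interleukins but carry other names were measured too. The 36 tested were cytokines and receptor chains without an Il symbol, JAK kinases, STAT factors, and signal proteins of the interleukin 1 and 17 pathways. Of these partner genes 4 rose and 0 fell, with a median change of 0.21. Of all tested probe sets 2.91% rose and 2.11% fell, and 4.65% and 3.38% of those with a mean of 50 in a group. Each partner is read by its brightest probe set, so neither share is a like background. Stat4, the STAT factor of interleukin 12 signals, averaged 405 ± 25.2 in the double knockout arrays and 133 ± 29.7 in the wild type arrays (SD, n = 3 each; log2 change 1.497, SE 0.26, adjusted p = 0.00674). Jak2, a kinase of receptors such as those of interleukin 3 and 12, rose by 1.06 (SE 0.25, adjusted p = 0.0343). Crlf2, the receptor chain of thymic stromal lymphopoietin that pairs with Il7r, rose by 1.04 (SE 0.22, adjusted p = 0.0197). Casp1, the protease that matures interleukins 1 beta and 18, rose by 1.01 (SE 0.24, adjusted p = 0.0374). Among the receptor chains set aside by the rule, Il7r rose by 1.499 and 1.57 on its 2 probe sets. Il4ra rose by 1.85 and Il2rb by 2.02 on their brightest, and Il2ra fell by 1.20 and 1.06. No tested probe set of Il21r (change -0.04), Il15ra (0.02 and 0.21) or Il1r1 (0.58) was called, and Il9r was too dim to be tested.

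Some markers of other cells also differed between the groups. The summed intensity of 7 NK and innate lymphoid markers was 2247 to 3908 on the arrays labelled double knockout and 544 to 823 on those labelled wild type. In that list 2 of 6 tested genes rose, Nkg7 and Klrd1, which make up most of the sum. Gata3 had a change of -0.02, and the NK receptor gene Ncr1 was not above the bacterial controls on any array. The sum was higher in the same group as Il18r1, Il18rap and Il10, and its part in those values was not tested. Within the double knockout arrays, Nkg7 and Klrd1 were lowest in replicate 2 (1243 and 657) and highest in replicate 3 (2423 and 1132). Il10 (182 and 229) and the second Il18rap probe set (37.8 and 67.5) were likewise lowest in replicate 2 and highest in replicate 3. Il18r1 was lowest in replicate 3 (118), and the other Il18rap probe set was lowest in replicate 1 (17.9). The sum of 5 B cell markers was 2022 to 2280 in the double knockout arrays and 858 to 1466 in the wild type arrays. There 1 of 4 tested genes rose, Cd79b (1.10, SE 0.27), whereas its partner Cd79a had a change of -0.60 (SE 0.31). The granulocyte sum was 20591 to 29995 in the double knockout arrays and 12291, 27464 and 366 on wild type replicates 1 to 3, with 0 of 12 genes called. Without wild type replicate 3 the same 4 interleukin probe sets passed, and without wild type replicate 1 only that of Il10 did. The part of granulocytes in the interleukin values was not tested. The macrophage sum was 1923 to 2315 in the double knockout arrays and 1055 to 2975 in the wild type arrays, with 1 of 9 genes higher (Cd14). Of 8 tested markers of the sorted early T cells 3 fell (Ptcra, Il2ra and Dntt) and 0 rose, with sums of 17895 to 20529 in the double knockout arrays and 29785 to 40689 in the wild type arrays. No tested marker of dendritic cells (6), mast cells and basophils (3), erythroid cells (2) or thymic epithelium (5) was called. This does not show equal shares of these cells. The erythroid sum was 284 to 364 in the double knockout arrays but 294, 38.5 and 3228 on wild type replicates 1 to 3. Of the coreceptor genes that the sorted cells should lack, Cd4 was not above the bacterial controls on any array, whereas Cd8a and Cd8b1 were above them on all 6. Cd8a read 68.5 to 85.9 in the double knockout arrays and 82.9 to 197 in the wild type arrays, and Cd8b1 read 65.9 to 137 in the double knockout arrays and 70.4 to 119 in the wild type arrays, with neither called.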

How the data were processed

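Per the labels, RNA described as amplified from sorted double negative thymocytes was hybridised to 6 single-colour arrays, 3 from Egr1/Egr3 double knockout and 3 from wild type mice. The authors deposited 1 linear intensity per probe set and array, on a scale with a common trimmed mean (seen in the values). Scanner software and the probe summary method are not stated in the labels. Symbols come from the platform annotation, and all 65 member symbols matched a RefSeq table of GRCm38.p6 by gene ID. After 64 control probe sets were removed, 16 was added to 45037 probe sets and log2 taken. Array medians differed by 0.126 and were centred. The 40% of probe sets with the lowest mean log2 values (under 4.87, or 13.2 in intensity) were not tested. The other 27022 were fitted with limma 3.58.1 in R 4.3.3 (lmFit, eBayes with an intensity trend, two-sided), with p-values adjusted by Benjamini-Hochberg at 0.05. The fit was tested on simulated data. Members with a call or a mean of 50 in a group are named with their tested probe sets, and Il1b, Il1rl2, Il24, Il20, Il12rb1, Il13ra1, Il1f6 and Il6ra were named after their values were seen. The members, partner genes and markers were chosen with earlier results of these data known. Partners and markers are represented by the probe set of highest mean. Alternatives were other scalings, offsets of 1 and 64, other filters, no trend, array weights, a replicate block and each array left out. A fit with 1 probe set for each gene was added after seeing the data.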

Additional observations from a re-analysis of the deposited data

How the results depend on the processing

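Il10 was called higher in all 17 alternatives, with log2 changes between 1.70 and 3.69 (these extremes come from the offsets of 64 and 1). With each array left out in turn, between 1 and 4 interleukin probe sets were called higher, against 4 in the main fit. Without wild type replicate 2 the 3 called included Il10rb, which the main fit did not call. Over all probe sets these omissions gave between 243 and 1381 higher and between 133 and 1363 lower. Array weights gave 8 interleukin probe sets higher, among 1769 higher and 1648 lower in all. The replicate block gave 1 interleukin probe set higher, Il10, among 394 higher and 179 lower. The main fit did not pair arrays by number. Same-numbered arrays had correlations of -0.0467, -0.133 and -0.291 in their deviations from the group means, and the other pairs between -0.185 and 0.255. With 3 arrays in each group these values cannot exclude a pairing. The block also leaves fewer degrees of freedom. With 1 probe set for each gene, 5 interleukin genes rose, the 4 and Il10rb, among 546 higher and 374 lower. No alternative called an interleukin probe set lower. Small changes without a call turned sign. Those of Il6st became -0.0497 with an offset of 64 and -0.40 with array weights on 1 probe set, and -0.0872 with array weights on another, and with an array left out ranged from -0.62 to 0.34 and from -0.0518 to 0.231. Under the same omissions Il18 ranged from -0.243 to 0.0392, Il1f10 from -0.0345 to 0.281, a dim Il10ra probe set from -0.49 to 0.48, and dim Il17re probe sets from -0.45 to 0.12 and from -0.107 to 0.0343. The cause was not tested. Probe sets near the bacterial controls include those of most ligands, and no order between the groups is read from those without a call. The called Il17rd probe set also lay near the controls. It exceeded the brightest one on 2 double knockout arrays and 0 wild type arrays, which limits that call.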
